A study of Mus musculus with 6 samples.

Results

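The Schlafen genes of the mouse lie side by side on chromosome 11, and 8 of them (Slfn1, Slfn2, Slfn3, Slfn4, Slfn5, Slfn8, Slfn9 and Slfn10) were measured by 9 probes on the arrays described here, out of 41174 mouse probes for 27670 gene names. A probe was taken when its deposited gene name was one of these symbols and it was not a control spot; Slfn3 had 2 probes and every other gene had 1. The family was chosen by measured values of the comparison below, so the differences of its members between the groups are given as a description, without a p-value for any member. The 4T1.2 line is a mouse mammary carcinoma line of BALB/c origin that spreads to bone. Cells carried either IRF7 in the retroviral vector pMSCV (3 arrays) or the base vector pMSCV without it (3 arrays). Both kinds of cells had been infected with virus packaged in HEK-293 cells, selected with puromycin, cloned from single cells and pooled from multiple clones, so each group is 1 pooled population sampled in 3 experiments. The arrays therefore measure the spread between experiments on the same 2 populations and not the spread between separately made populations. Each array was a single-colour Agilent array of total RNA labelled with Cy3.

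IRF7 is a transcription factor that, once activated, switches on type I interferon genes and many genes that interferon induces. Schlafen genes are a family found in mammals, first described in thymocytes, and several of them are induced by type I interferon. They fall into a short group (Slfn1 and Slfn2), an intermediate group (Slfn3 and Slfn4) and a long group with a helicase-like part (Slfn5, Slfn8, Slfn9 and Slfn10). Slfn1 is known for growth arrest of T cells, and Slfn2 for keeping T cells and monocytes quiescent.

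Along chromosome 11 of the mm7 build, to which the deposited coordinates refer, the order of the probes was Slfn5, Slfn9, Slfn8, Slfn10, Slfn2, Slfn1, Slfn4 and Slfn3. The first probe starts at 83043722 and the last ends at 83287526, a span of 243805 bases. Slfn8, Slfn9 and Slfn10 are on the minus strand and the others on the plus strand. RefSeq (GRCm38.p6) lists these genes in the same order, with Slfn10 as Slfn10-ps, which it does not class as protein coding; Slfn14, the last of its row, was not analysed here. The 60-base sequences of the 6 probes that gave a measurable signal are shown 5′ to 3′, with mm7 coordinates and strand, because they fix which stretch of each transcript was read.
Slfn9, A_51_P504988, chr11:83062570-83062629, minus: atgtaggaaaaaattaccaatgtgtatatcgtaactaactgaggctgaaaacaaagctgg
Slfn8, A_52_P543489, chr11:83084956-83085015, minus: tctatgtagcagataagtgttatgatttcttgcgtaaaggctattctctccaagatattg
Slfn10, A_51_P504991, chr11:83110126-83110185, minus: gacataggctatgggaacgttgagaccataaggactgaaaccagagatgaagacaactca
Slfn2, A_51_P423578, chr11:83151864-83151923, plus: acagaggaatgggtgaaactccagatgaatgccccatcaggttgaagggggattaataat
Slfn3, A_51_P228768, chr11:83284834-83284893, plus: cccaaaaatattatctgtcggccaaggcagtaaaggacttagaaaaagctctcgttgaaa
Slfn3, A_52_P178002, chr11:83287467-83287526, plus: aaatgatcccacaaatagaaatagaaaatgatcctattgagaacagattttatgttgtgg
Among the 36 pairs that the 9 probes form, the longest run of bases shared by 2 probes was 9, and at the best offset at most 26 of 60 bases were identical. The array's design nevertheless lists RefSeq transcripts of Slfn9 and Slfn8 beside that of Slfn10 for the Slfn10 probe, and a transcript of Slfn8 beside that of Slfn9 for the Slfn9 probe. The signals of these 3 long genes can therefore not be fully told apart. The Slfn2 probe and the first Slfn3 probe each list a RefSeq transcript of their own gene alone, and the second Slfn3 probe lists none.

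Between 56.8% and 59.7% of the mouse spots were well above background on the IRF7 arrays, against 54.3% to 56.8% on the base-vector arrays. The correlation of log2 levels was 0.996 to 0.997 within a group and 0.978 to 0.980 between groups. The Irf7 probe, which checks the labels, had processed signals of 4486, 4963 and 5012 in IRF7 cells, against 246, 195 and 210 in base-vector cells, a 19.4-fold difference (log2 change 4.28, SE 0.05, limma adjusted p = 4.35e-07). The IRF7 arrays and the first base-vector array shared slide 1, and the other 2 base-vector arrays were on slide 2. Values from slide 1 alone, where the base vector had 1 array and the spread comes from the IRF7 arrays, are given beside the results.

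Of the 9 Schlafen probes, 6 (both probes for Slfn3 and those for Slfn2, Slfn8, Slfn9 and Slfn10) were well above background on all 6 arrays, and all 6 were higher in IRF7 cells. The probes for Slfn1, Slfn4 and Slfn5 were well above background on no array. Levels below are log2 of the deposited processed signal after subtracting each array's 75th percentile, and a change is the mean level in IRF7 cells minus that in base-vector cells. At an adjusted p under 0.05 (limma, Benjamini-Hochberg over 23518 probes), all 6 measurable probes were called higher, as were 30.8% of all tested probes. In all 6 every IRF7 array lay above every base-vector array, as it did for 34.7% of all tested probes. Nothing is read from these 2 counts, since the members were selected on this contrast. The median log2 change was 0.87 over the 6 probes and 0.02 over all tested probes.

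**Figure D1:**
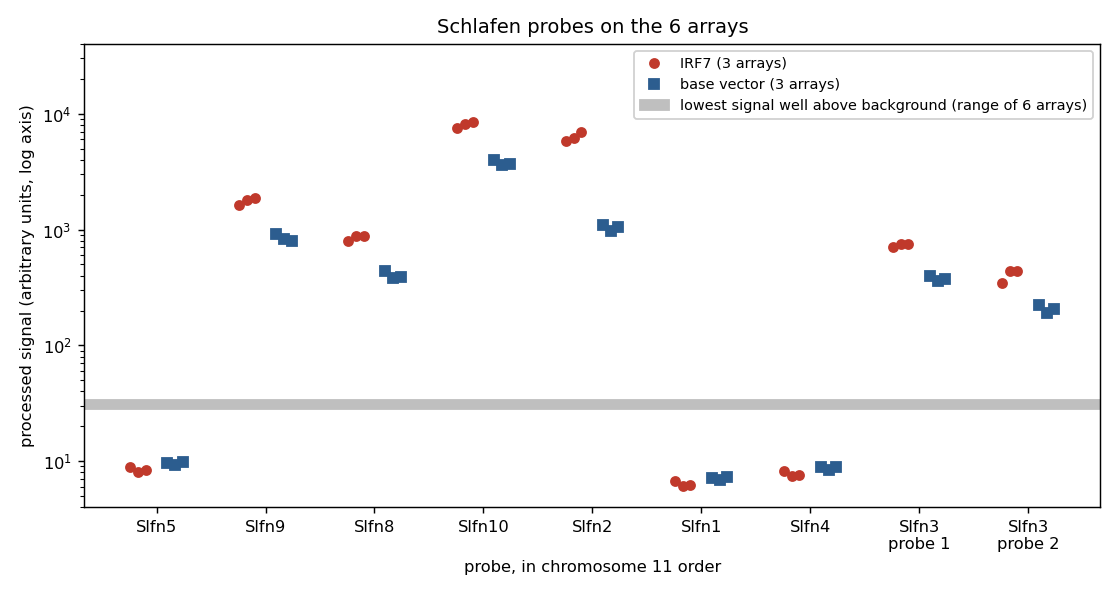
Processed signal (arbitrary units, log axis) of the 9 Schlafen probes on each array, IRF7 cells left of base-vector cells, in chromosome order; the grey band is the range over arrays of the lowest signal well above background. Slfn1, Slfn4 and Slfn5 lie below the band on all 6 arrays, and the 6 other probes lie above it with the IRF7 arrays higher.

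Among the short genes, Slfn2 stood apart from the rest of its family. Its processed signal was 5786, 6215 and 6992 in IRF7 cells, against 1100, 975 and 1047 in base-vector cells. The lowest IRF7 array was thus well above the highest base-vector array. Its level averaged 2.26 ± 0.06 in IRF7 cells and -0.15 ± 0.04 in base-vector cells (SD, n = 3 each). This is a 5.30-fold difference, or a log2 change of 2.40 (SE 0.04), and slide 1 alone gave 2.42. Taking 1 probe per gene, 104 of 15414 tested genes (0.675%) had a larger change upward. The other short gene, Slfn1, had signals of 6.77, 6.12 and 6.19 in IRF7 cells, against 7.21, 6.90 and 7.36 in base-vector cells. All 6 lay below the lowest signal that counted as well above background on any array, 27.97.

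The intermediate genes gave a measured and an unmeasured member. Slfn3 had signals of 709, 749 and 746 in IRF7 cells on its first probe, against 396, 360 and 373 in base-vector cells. On its second probe the signals were 347, 435 and 441 in IRF7 cells, against 222, 190 and 207 in base-vector cells. The groups did not overlap on either probe. The log2 change was 0.77 (SE 0.04), or 1.70-fold, on the first and 0.78 (SE 0.07), or 1.72-fold, on the second. The probes read different stretches, and their changes differed by 0.01 ± 0.09 (SE). On slide 1 alone they gave 0.80 and 0.77. Slfn4, known in mice as an interferon-induced gene of macrophages and a close relative of Slfn3, had signals of 8.19, 7.49 and 7.64 in IRF7 cells, against 8.98, 8.44 and 8.97 in base-vector cells.

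With the processing used here, the 3 measured long genes had nearly equal changes. Slfn10 had signals of 7507, 8080 and 8548 in IRF7 cells, against 3992, 3633 and 3654 in base-vector cells, a log2 change of 0.90 (SE 0.03) or 1.87-fold. Slfn8 had signals of 793, 875 and 881 in IRF7 cells, against 437, 382 and 387 in base-vector cells, a log2 change of 0.88 (SE 0.03) or 1.84-fold. Slfn9 had signals of 1617, 1805 and 1861 in IRF7 cells, against 916, 824 and 802 in base-vector cells, a log2 change of 0.86 (SE 0.03) or 1.81-fold. In each of them the lowest IRF7 array lay above the highest base-vector array. On slide 1 alone the log2 changes were 0.91 for Slfn10, 0.86 for Slfn8 and 0.84 for Slfn9. Slfn5, a nuclear protein that interferon induces, had signals of 8.97, 8.14 and 8.41 in IRF7 cells, against 9.71, 9.25 and 9.80 in base-vector cells.

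No fold is given for Slfn1, Slfn4 and Slfn5. On every array the deposited signal of these 3 probes was a surrogate, a value that the scanner software puts in place of a signal it could not tell from background. Their 18 values ran between 6.12 and 9.80. The deposited error of these values was over 99% of the signal, against about 10% for the 6 measurable probes. The base-vector values were above the IRF7 values in all 3, but a surrogate follows the background of its array and gives no order. These arrays thus give a bound for the 3 genes and no level in either kind of cell.

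In order of change, Slfn2 came first, then Slfn10, Slfn8, Slfn9, the second Slfn3 probe and the first Slfn3 probe. Slfn2 exceeded Slfn10, its neighbour in that order, by 1.51 ± 0.04 (SE) on the log2 scale. Slfn10 exceeded Slfn8 by 0.02 ± 0.03, and Slfn8 exceeded Slfn9 by 0.02 ± 0.02. Slfn9 exceeded the second Slfn3 probe by 0.08 ± 0.07. These last 3 gaps are close to or under the size of their errors, and the order of Slfn10, Slfn8 and Slfn9 is not resolved. The errors cover the spread between arrays and not the processing. With another background correction (normexp) the changes of Slfn10, Slfn8 and Slfn9 were 0.89, 0.77 and 0.80. With quantile scaling they were 0.86, 0.89 and 0.85. Slfn10 exceeded the first Slfn3 probe by 0.13 ± 0.04. The SD of a group was between 0.0095 and 0.114 over the 6 probes, whose changes were 0.77 or more. This too is a description, since the members were selected on this contrast.

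**Figure D2:**
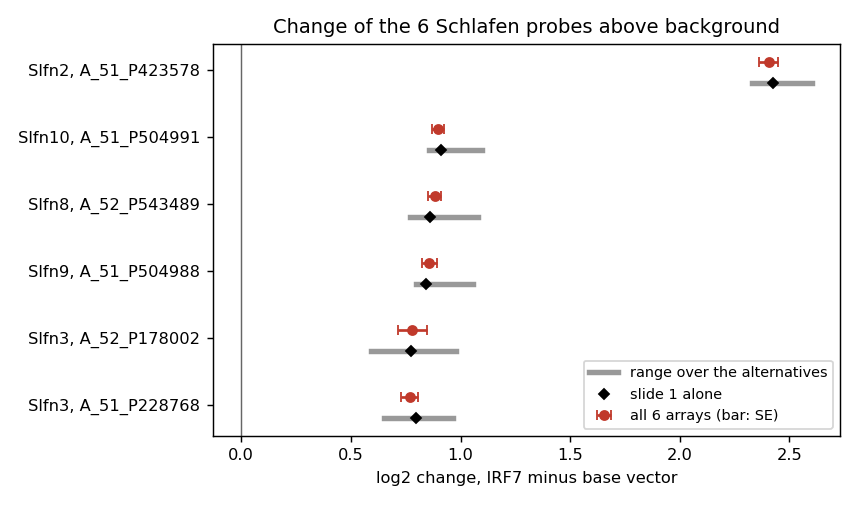
Log2 change, IRF7 minus base vector, of the 6 Schlafen probes above background: red points with SE bars use all 6 arrays, black diamonds slide 1 alone, and grey lines span the alternative settings. Slfn2 lies at 2.40 and the other 5 probes between 0.77 and 0.90, with every range on the positive side.

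After scaling, most called neighbours of the family were lower in IRF7 cells. Of the tested genes on chromosome 11 with a probe within 1 Mb of the family on either side, chemokine genes apart, 12 of 21 were called lower (57.1%), 1 was called higher and 8 passed in neither direction. Of all 15414 tested genes 28.6% were called lower and 31.7% higher. On the whole of chromosome 11, 607 of 1323 genes (45.9%) were called lower and 247 higher. The median log2 change was -0.23 for the 21 neighbours, -0.14 for chromosome 11 and 0.03 for all genes. The direction of the neighbours was known when this region was picked, so it is a description too, without a p-value for any neighbour. Without scaling of the arrays, which puts the median of all genes at 0.23, 2 of the 21 neighbours were called lower and 3 higher. In that setting 10.9% of all genes were called lower. The difference between the neighbours' median and that of all genes, -0.26, is not changed by such scaling, which shifts every gene of an array alike. Slide 1 alone, with 1 base-vector array, gave medians of -0.22 for the 21 neighbours, -0.16 for chromosome 11 and 0.0024 for all genes.

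On the side of Slfn5 the nearest tested gene was Nle1, a ribosome assembly factor, 60.6 kb from the first Schlafen probe. Its signals were 2293, 2498 and 2698 in IRF7 cells, against 2273, 2049 and 2075 in base-vector cells, and after scaling its log2 change was 0.03 (SE 0.03). Next came Rad51d, a protein of homologous recombination repair, at 84.0 kb. Its signals were 793, 861 and 945 in IRF7 cells, against 1263, 1199 and 1258 in base-vector cells. It fell by 0.72 on the log2 scale (SE 0.05) and was called lower, and its other 2 probes changed by -0.71 and -0.69. The third, the transcript AK037080, had a log2 change of -0.46 (SE 0.35) that was not called.

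On the side of Slfn3, Ap2b1, a subunit of the clathrin adaptor AP-2, lay at 185 kb. Its signals were 1746, 1931 and 1957 in IRF7 cells, against 2032, 1796 and 1859 in base-vector cells, and they overlapped. After scaling it fell by 0.21 on the log2 scale (SE 0.03) and was called lower. Without scaling its change was -0.01 and was not called. A second Ap2b1 probe, at -0.36, was not called. Next to it, 1700020L24Rik had a log2 change of 0.04 (SE 0.07) that was not called. Of the nearest genes named here, Rad51d was called lower with and without scaling. A transcript with a probe between those of Slfn5 and Slfn9, 1190001M18Rik, was looked at after its values were seen. It had signals of 28.7, 274 and 44.6 in IRF7 cells, against 18.7, 28.2 and 113 in base-vector cells, and its groups overlapped.

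Chemokine genes were counted apart because they too can respond to interferon. Within 1 Mb there were 3 with a tested probe. Ccl2 had a log2 change of 0.82 (SE 0.04) and Ccl4 of 0.82 (SE 0.23), both called higher, and Ccl5 had -0.24 (SE 0.04) and was called lower.

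**Figure D3:**
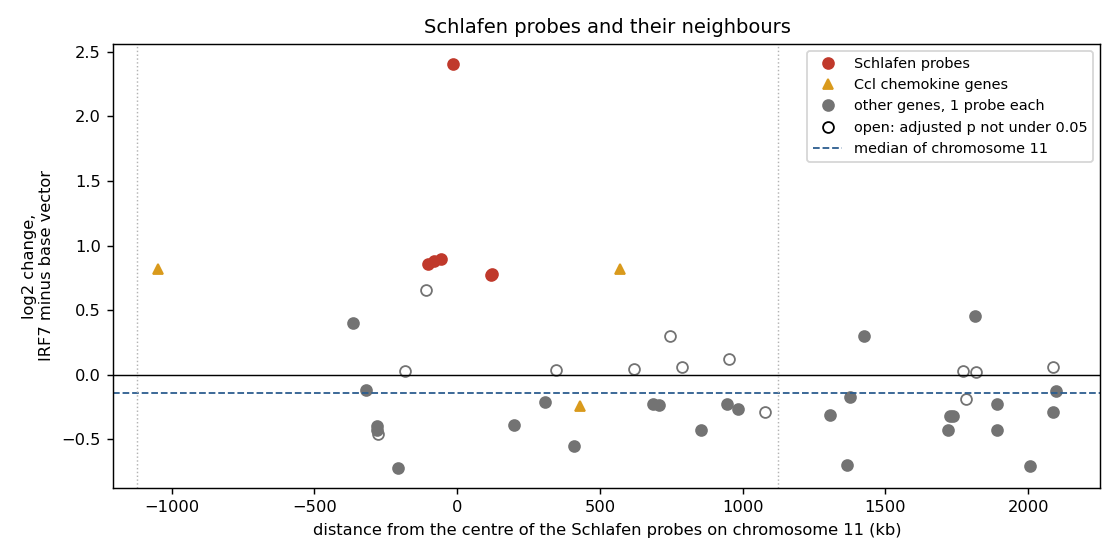
Log2 change, IRF7 minus base vector, against distance in kb from the centre of the Schlafen probes; filled points have an adjusted p under 0.05, triangles are chemokine genes, dotted lines mark 1 Mb beyond the outer probes and the dashed line is the chromosome 11 median, -0.14. The Schlafen probes lie at 0.77 to 2.40, and 12 of the 21 other genes between the dotted lines, those of the family's own stretch apart, are called below 0 after scaling (2 without it).

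Beside other genes that interferon induces, the changes of the Schlafen genes were small, apart from Slfn2. Of 33 listed antiviral genes 31 were tested, and all 31 rose (limma, adjusted p under 0.05), with a median log2 change of 2.76 and a range of 0.55 to 7.90. The list was drawn up with earlier results of these data known. Ifi44, an interferon-induced protein, rose by 6.89 (SE 0.03), Usp18, a brake on interferon receptor signalling, by 6.20 (SE 0.04), and Oas3, which makes the activator of an antiviral ribonuclease, by 5.70 (SE 0.03). Zbp1, a sensor of Z-form nucleic acid, rose by 3.66 (SE 0.03), Oas1a by 3.24 (SE 0.03) and Ifit3, an antiviral protein with tetratricopeptide repeats, by 3.65 (SE 0.04). Slfn2, at 2.40, lay below 20 of the 31 and above 11. The other measured members lay above only 2 of the 31. The antiviral genes on chromosome 11 were 9 of 9 higher, with a median of 2.26, on the chromosome where 45.9% of tested genes were called lower.

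Of the 11 genes of interferon production and signalling, 5 rose (45.5%), 3 fell (27.3%) and 3 passed in neither direction. Of all tested genes 31.7% were called higher and 28.6% lower. Without scaling 6 of the 11 signalling genes were called higher and 1, Irf3, lower. Among those well above background on all 6 arrays, 4 were called higher and 3 lower. Irf7 is given above. Irf9 rose by 2.46 (SE 0.04) and Stat2 by 1.83 (SE 0.03), and both are subunits of the factor ISGF3 downstream of the interferon receptor. Ifnb1, which encodes interferon beta, was well above background on all 3 IRF7 arrays and on 0 of 3 base-vector arrays. Its signal was higher by at least 2.57-fold in IRF7 cells, the bound being set by the lowest signal well above background. Irf3 fell by 0.70 (SE 0.03), Irf1 by 0.40 (SE 0.03) and the receptor kinase Tyk2 by 0.40 (SE 0.06). The receptor chains Ifnar1 (0.12) and Ifnar2 (-0.06) and the kinase Jak1 (-0.01) were not called. Without scaling Irf1 and Tyk2, at -0.21 and -0.20, were not called, and Ifnar1, at 0.32, was called higher.

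Because Slfn1 and Slfn2 are known for restraining growth in blood cells, growth genes were listed as well. Of 12, 7 rose (58.3%), 2 fell (16.7%) and 3 passed in neither direction, with a median log2 change of 0.21. Of all tested genes 31.7% were called higher and 28.6% lower. The cell cycle inhibitor Cdkn1a rose by 1.46 (SE 0.04) and cyclin E1 (Ccne1) by 0.52 (SE 0.03). Cdk1 rose by 0.30 (SE 0.04) and Mcm2, part of the replicative helicase, by 0.25 (SE 0.03). Mki67, a marker of cycling cells, fell by 0.41 (SE 0.05) and the inhibitor Cdkn1b by 0.44 (SE 0.05). Without scaling 7 of the 12 were called higher and 0 lower, with Mki67 at -0.22 and Cdkn1b at -0.24. In that setting the median of all genes was 0.23, and 10.9% of all genes were called lower. Whether the 2 falls passed the threshold thus depended on the scaling.

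**Figure D4:**
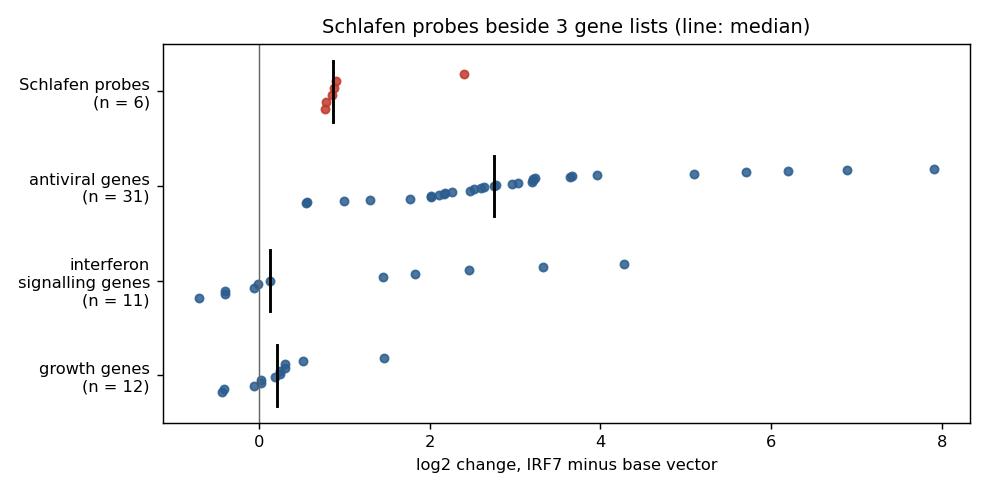
Log2 change, IRF7 minus base vector, of the 6 Schlafen probes (red) and of the tested antiviral, interferon signalling and growth genes (blue, 1 probe per gene); the vertical bar is the median of each row. The Schlafen median is 0.87 and the antiviral median 2.76, and the signalling and growth genes lie on both sides of 0.

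The Schlafen genes are best known from lymphocytes and myeloid cells, so markers of these cells were examined. Of 8 lymphocyte markers 5 were well above background on some array and 3 on all 6, and Cd3d, Cd2 and Cd8a were so on none. Their summed processed signal, not scaled between arrays, was 1069 to 1203 in IRF7 cells and 866 to 1044 in base-vector cells. Of 7 myeloid markers 6 were above background on some array and Itgam on none, with sums of 8588 to 9513 in IRF7 cells and 6236 to 7217 in base-vector cells. The lymphocyte sums are mostly Lck, and the myeloid sums mostly S100a8 and Cd14. Cd14 had a log2 change of 0.38 and Lck of 0.11, both called higher. Of the 4 tested lymphocyte markers 3 were not called, nor were 3 of the 4 tested myeloid markers, S100a8 (0.14) among them. Of the epithelial markers 5 of 6 were well above background on all arrays, with sums of 461924 to 511070 in IRF7 cells and 385031 to 445419 in base-vector cells, and Krt19 was so on none. These sums are mostly Krt8 and Krt18. Of the 5 tested epithelial markers 2 were called higher and 3 were not called, with a median log2 change of 0.04. Epcam, a surface protein of epithelial cells, rose 2.29-fold (limma adjusted p = 0.00182), and Krt8 had a log2 change of 0.15. Those not called were Krt18 (-0.06), Krt14 (-0.21) and Cdh1 (0.04). Of the 4 fibroblast markers Col1a1 was above background on no array, and the sums were 3193 to 3642 in IRF7 cells, against 6400 to 7314 in base-vector cells. Pdgfra, which makes up most of these fibroblast sums, fell by 1.21 on the log2 scale. Dcn, above background on 0 of 3 IRF7 arrays and on 3 of 3 base-vector arrays, was at least 3.11-fold lower in IRF7 cells. Col1a2 had a log2 change of 0.31 (SE 0.20) that was not called. The part of these markers in the Schlafen changes was not tested, and in bulk RNA a share of cells with more of a transcript and more transcript per cell cannot be told apart.

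The genes whose values over the 6 arrays were most like those of each measured member were found by the root mean square difference of log2 levels, each centred on its base-vector mean. For Slfn2 they were Parp9 at 0.03, Adamts8 at 0.04 and Pls1 at 0.05, and 11 genes lay within 0.1. Parp9 and Adamts8 were well above background on all 6 arrays and Pls1 on 3. The distance of Pls1 thus rests in part on values not well above background. For Slfn10 the most alike genes were Cyp51, Eaf1 and Fxyd5, each at 0.02. For Slfn8 they were Ltbp2, Cyp51 and Etl4, at 0.03 to 0.04, and for Slfn9 Ankrd33b, Ltbp2 and Golgb1, also at 0.03. For Slfn3 they were Msmo1, Tslp and Tap1, each at 0.03. Within 0.1 of Slfn10, Slfn8, Slfn9 and Slfn3 lay between 192 and 277 genes. Of 15414 tested genes, 1 probe each, 638 had a larger change upward than Slfn10, 657 than Slfn8 and 684 than Slfn9. For Slfn3 these were 841 on the first probe and 816 on the second, against 104 for Slfn2.

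Promoter sequence was not used to choose the family. RefSeq (GRCm38.p6) gave promoters of 250 bases before to 50 after the start site for 7 of the 8 genes, with 2 entries for Slfn8 and none matched for Slfn10. Interferon response elements bind factors of the IRF family, alone or within ISGF3. A double motif, GAAA followed by any 2 bases and again GAAA, was searched on both strands, as was the core AANNGAAA, which overlaps it. The promoters of the measured genes are shown, and that of Slfn5 because it holds the double motif although its probe was not above background; capitals mark matches to the core on either strand, and each promoter is written along its gene, 5′ to 3′. Positions are those of the first base of a match along the gene, counted from 0 at the start site.
Slfn2, chr11:83064862-83065161, plus: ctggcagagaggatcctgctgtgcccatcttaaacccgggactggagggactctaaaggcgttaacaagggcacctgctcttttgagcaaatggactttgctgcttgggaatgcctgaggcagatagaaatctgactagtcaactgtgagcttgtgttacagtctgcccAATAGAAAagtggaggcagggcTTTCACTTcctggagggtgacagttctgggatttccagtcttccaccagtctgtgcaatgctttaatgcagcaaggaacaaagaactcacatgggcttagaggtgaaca
Slfn9, chr11:82991781-82992080, minus: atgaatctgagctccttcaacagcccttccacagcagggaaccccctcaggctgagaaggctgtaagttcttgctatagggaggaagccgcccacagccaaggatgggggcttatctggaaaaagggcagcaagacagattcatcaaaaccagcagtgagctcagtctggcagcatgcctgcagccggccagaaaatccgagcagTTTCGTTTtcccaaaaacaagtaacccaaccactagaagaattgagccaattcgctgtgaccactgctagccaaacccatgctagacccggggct
Slfn8, chr11:83020761-83021060, minus: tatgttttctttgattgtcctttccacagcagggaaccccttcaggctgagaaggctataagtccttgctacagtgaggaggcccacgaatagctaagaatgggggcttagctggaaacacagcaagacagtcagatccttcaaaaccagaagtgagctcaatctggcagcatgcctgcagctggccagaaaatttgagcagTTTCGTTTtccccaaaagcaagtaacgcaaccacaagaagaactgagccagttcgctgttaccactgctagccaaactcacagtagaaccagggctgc
Slfn3, chr11:83191080-83191379, plus: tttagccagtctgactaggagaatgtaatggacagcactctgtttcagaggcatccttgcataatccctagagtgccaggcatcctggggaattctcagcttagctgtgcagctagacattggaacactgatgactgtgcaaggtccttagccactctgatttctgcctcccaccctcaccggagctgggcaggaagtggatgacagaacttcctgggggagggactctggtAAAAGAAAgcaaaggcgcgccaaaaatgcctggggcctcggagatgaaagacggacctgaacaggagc
Slfn5, chr11:82951852-82952151, plus: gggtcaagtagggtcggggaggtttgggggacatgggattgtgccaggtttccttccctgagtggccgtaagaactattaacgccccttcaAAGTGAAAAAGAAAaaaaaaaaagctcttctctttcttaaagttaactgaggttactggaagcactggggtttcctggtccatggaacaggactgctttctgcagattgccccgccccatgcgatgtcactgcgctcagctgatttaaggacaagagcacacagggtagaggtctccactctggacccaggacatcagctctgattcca
The double motif was found in 3 of the 7 genes, against 3.443% of 32851 RefSeq promoters of the same length. Slfn9 held GAAAACGAAA at position -45 from the start site, read on the opposite strand. Slfn8 held the same letters at -48 in the entry shown, also on the opposite strand. The bases around the motif are nearly the same in both promoters, so these matches are not separate cases. Slfn5 held GAAAAAGAAA at -155. The Slfn2 window, that of the member with the largest change, held no double motif. It held the core as AATAGAAA at -81 and, on the opposite strand, as AAGTGAAA at -59. The core was found in all 7 genes, against 23.917% of promoters. A motif bound by STAT dimers, TTCNNNGAA, was found in none of the 7, against 8.298%. With 7 genes nothing is read from any of these shares. Of 25 antiviral genes with a promoter 16 held the double motif, 22 the core and 8 the STAT motif. These matches describe letters in a window and not binding: Slfn1 and Slfn4 held the core and Slfn5 the double motif, and their probes were not above background.

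**Figure D5:**
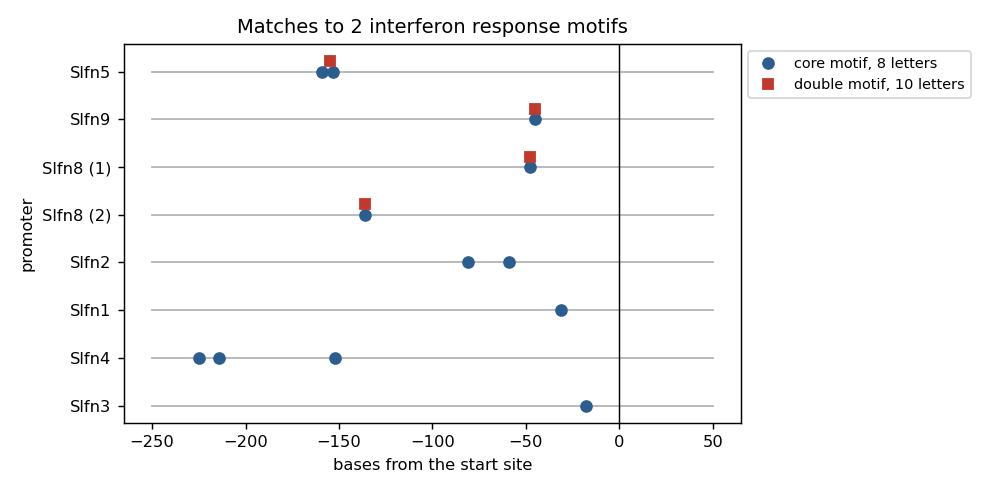
Positions in bases from the start site of matches to the 8-letter core motif (blue) and the 10-letter double motif (red) in 8 promoter entries of 7 Schlafen genes, each drawn as a grey line. The double motif lies in Slfn5, Slfn9 and both entries of Slfn8, and every line has a core match. In Slfn8 it is 1 genomic site, drawn at -48 and -136 because the entries have different start sites.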

How the data were processed

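Members and gene lists were chosen with earlier results of these data known. Per the file headers, each of the 6 arrays was deposited as Agilent Feature Extraction output (version 9.5.3.1 in the submitters' processing notes), and the processed signal is an intensity from which the software has already subtracted background. The authors' deposited value table holds the same intensity values (largest difference 0). Control spots (1639 of 45018) and outlier spots (111 to 121 per array) were left out. Spots of 1 probe were averaged, each array's 75th percentile was subtracted on the log2 scale (a step of this work on the authors' values), and the 23518 probes that 3 or more of the 6 arrays measured well above background were fitted with limma 3.58.1 in R 4.3.3, IRF7 against base vector, with Benjamini-Hochberg adjustment over all of them. A gene with several probes is given by its brightest. The fit was tested on simulated data. Precision is limited by 3 arrays per group, and p-values measure the spread between these arrays only. Gene names came from RefSeq by accession for 22944 probes, by symbol for 6664 and by older symbol for 3108, and 8458 kept the file's name. The genes named are all members, Irf7, the 3 nearest tested genes on each side, the 3 most alike per member, the signalling list and up to 6 of each other list with the smallest p; other markers and the chemokines were named after their values were seen. Some genes that this rule takes are not reported here.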

Additional observations from a re-analysis of the deposited data

How the results depend on the processing

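The 6 measurable Schlafen probes were called higher under each alternative in which they were fitted (18 for each, 17 for the second Slfn3 probe): another background correction, scaling, filter or fit, the slide as a block or slide 1 alone, the replicate block, and each array left out. The log2 change ran from 2.33 to 2.60 for Slfn2, 0.86 to 1.10 for Slfn10, 0.77 to 1.08 for Slfn8, 0.80 to 1.06 for Slfn9, 0.65 to 0.97 for the first Slfn3 probe and 0.59 to 0.98 for the second. With no filter Slfn1, Slfn4 and Slfn5 were called lower too (-0.37, -0.38 and -0.37), on surrogate values. The neighbours called lower, 12 of 21, numbered 2 of 21 without scaling, 7 of 12 within 0.5 Mb and 23 of 38 within 2 Mb, and 10 to 13 with 1 array left out. Of all genes, 28.6% were called lower with scaling and 10.9% without it. The antiviral genes called higher were 31 throughout, the signalling genes called in either direction 7 to 9 and the growth genes 7 to 10. Without scaling the signalling genes split into 6 higher and 1 lower, against 5 and 3, and the growth genes into 7 and 0, against 7 and 2. Of all called probes 52.4% were higher, 79.4% without scaling and 32.6% without a filter. The replicate numbers were not taken as pairing the arrays: deviations of same-numbered arrays correlated at 0.04, 0.23 and 0.22, each the highest for its number. With the replicate block 6 Schlafen probes were called, and 14547 of all probes, against 13818 without it. Slide 1 alone and the slide as a fixed block take the change from the same arrays and are 1 check, resting on 1 base-vector array. What the slide contributes to the groups' difference was not tested beyond these fits.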
